A study of Homo sapiens with 54 samples.

Results

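The proteasome subunit genes were taken as every row of the deposited expression tables whose name is PSM, a letter from A to G and a number. There were 48 of them among 55906 gene names, and they code for the subunits of the proteasome, its activators and its assembly factors. Their RNA was followed in 54 libraries, in 18 groups of 3 replicates from 4 cell lines in which the splicing factors *TRA2A* and *TRA2B* were depleted. A549 and NCI-H23 are lung cancer lines, and all of their groups carried Zim3-dCas9, a nuclease-dead Cas9 with a repressor domain that silences the promoter its guide binds. They received control guides (Control KD), or guides to *TRA2A* (*TRA2A* KD), to *TRA2B* (*TRA2B* KD) or to both (*TRA2A/B* DKD), and were collected on day 5. LN229 and LN319 are glioma lines, and all of their groups carried Cas9 and were collected on day 7. Part of them expressed luciferase (Luc) and received guides to a control locus, to *TRA2A* or to *TRA2B* (Luc Control KO, Luc *TRA2A* KO and Luc *TRA2B* KO), and part expressed *TRA2B* from a transgene (TRA2B-OE) with control guides or guides to *TRA2A*. Control guides cut or bind safe-harbour loci, and the cells are pools rather than single clones, so a knockout group can hold cells that kept the gene. The study calls NCI-H23 and LN319 dependent on *TRA2A*, and A549 and LN229 independent of it.

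The proteasome destroys proteins that carry ubiquitin chains and supplies the peptides shown by MHC class I molecules. Its 20S core is a barrel with outer rings of alpha subunits (PSMA genes), which gate the entrance, and inner rings of beta subunits (PSMB genes), of which *PSMB5*, *PSMB6* and *PSMB7* cut proteins. Interferon induces *PSMB8*, *PSMB9* and *PSMB10*, which take the places of these catalytic subunits in the immunoproteasome. The 19S cap joins a ring of ATPases (PSMC genes), which unfold the substrate, to non-ATPase subunits (PSMD genes), which bind and remove ubiquitin. *PSME1* and *PSME2* (together PA28), *PSME3* and *PSME4* open the core without ubiquitin, *PSMF1* (PI31) binds the core, and *PSMG1* to *PSMG4* are chaperones of its assembly, as *PSMD5*, *PSMD9* and *PSMD10* are of the cap. Subunits assemble in fixed proportions, and the transcription factor *NFE2L1* is known to raise their genes together when proteasome activity is low.

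The targeted genes were checked first. *TRA2A* fell from 75.1 ± 5.08 to 7.18 ± 2.81 TPM (a length-corrected share of the transcripts of a library, mean ± SD, n = 3) in A549 *TRA2A* KD and from 105 ± 2.55 to 6.84 ± 0.255 TPM in NCI-H23. In the knockout lines, where cut transcripts can still be counted, it fell from 109 ± 3.31 to 68.8 ± 4.82 TPM in LN229 and from 107 ± 5.65 to 35.5 ± 2.44 TPM in LN319, and *TRA2B* fell from 87.6 ± 3.59 to 30.8 ± 1.58 TPM in LN319 Luc *TRA2B* KO and from 222 ± 17.99 to 147 ± 3.69 TPM in LN229. *TRA2B* KD lowered *TRA2B* from 137 ± 3.17 to 13.3 ± 0.856 TPM in A549, and NCI-H23 went from 92.2 ± 11.3 to 9.75 ± 1.45 TPM. The *TRA2A/B* DKD left 10.4 ± 0.693 TPM of *TRA2A* and 22.4 ± 4.72 TPM of *TRA2B* in A549, and 21.5 ± 1.58 and 23.3 ± 1.20 TPM in NCI-H23. Under *TRA2B* overexpression, *TRA2A* KO lowered *TRA2A* from 91.1 ± 2.80 to 48.1 ± 4.95 TPM in LN319. In LN229 the libraries labelled TRA2B-OE *TRA2A* KO had 75.6, 68.8 and 65.4 TPM against 84.3, 74.8 and 81.5 TPM in TRA2B-OE Control KO, which overlapped, and *TRA2A* was not called (-0.23 ± 0.0692 SE, adjusted p = 0.068). There *TRA2A* was already lower in TRA2B-OE Control KO (80.2 ± 4.85 TPM) than in Luc Control KO (109 ± 3.31 TPM). TRA2B-OE *TRA2A* KO, at 69.9 ± 5.20 TPM, lay near Luc *TRA2A* KO, at 68.8 ± 4.82 TPM. TRA2B-OE Control KO had 832 ± 112 TPM of *TRA2B* in LN229 and 765 ± 81.5 TPM in LN319. The labels do not say whether replicates were separate cultures, so a p-value measures the spread between these libraries, which may be technical. A549 Control KD replicate 3 stood apart, with a median correlation of 0.837 with the other A549 libraries against at least 0.872 for the other 11. The A549 counts of calls, the medians and the values of some genes are therefore also given without it. The calls shared between lines, the ratio of inducible subunits and most values of single genes are given only with it. Of the marker lists, 5 of 5 epithelial genes reached 1 TPM in A549 Control KD and 4 of 5 in NCI-H23 Control KD, while the lung lineage genes *NKX2-1* and *SFTPB* did not in either. All 6 glial genes did in LN229 and 4 in LN319, where *OLIG2* was near 0 and 4 of 5 epithelial genes also passed 1 TPM. The lists did not separate the tissues, as 3 of the 6 glial genes also passed in A549 and in NCI-H23 Control KD. In Luc Control KO, 2 of 5 epithelial genes passed in LN229 and 1 of 2 lung lineage genes in LN319. Leukocyte genes summed to at most 4.73 TPM in a control library. A TPM is a share of a library, so fewer cells of a kind and less RNA per cell cannot be told apart.

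The promoters of 3 members on which the results below turn are shown first, as the 250 bases before the start of the gene in RefSeq on GRCh38.p14, plus strand, 5′ to 3′. *PSMA4* codes for an alpha ring subunit and had the largest fall in both lung lines, *PSMB3* codes for a beta ring subunit that fell in 3 lines, and *PSMB9* codes for an inducible catalytic subunit that fell in NCI-H23 and LN319. In Gencode v44 *PSMA4* spans chr15:78540405-78552417, *PSMB3* chr17:38752741-38764225 and *PSMB9* chr6:32844136-32859851, all protein-coding genes on the plus strand. *PSMB8* (chr6:32840717-32844679, minus strand) overlaps the annotated start of *PSMB9*, and *TAP1* (chr6:32845209-32853816, minus strand) lies within the annotated span of *PSMB9*. Whether the transcripts of these genes share sequence, and so reads, was not examined. The windows are chr15:78540155-78540404 (*PSMA4*), chr17:38752491-38752740 (*PSMB3*) and chr6:32853942-32854191 (*PSMB9*, whose RefSeq start lies inside the longer Gencode gene). Capitals mark the core of the interferon-stimulated response element (GAAA repeated after any 2 bases) in *PSMA4*, the core of the antioxidant response element (TGACNNNGC, on either strand), to which *NFE2L1* and *NFE2L2* bind, in *PSMB3* and *PSMB9*, and the CCAAT box in the same promoters. The antioxidant response element, CCAAT and NRF1 motifs were also found for *PSMA4*, but not in the bases printed. They lie in the 50 bases after the start or in another promoter window of the gene.
PSMA4: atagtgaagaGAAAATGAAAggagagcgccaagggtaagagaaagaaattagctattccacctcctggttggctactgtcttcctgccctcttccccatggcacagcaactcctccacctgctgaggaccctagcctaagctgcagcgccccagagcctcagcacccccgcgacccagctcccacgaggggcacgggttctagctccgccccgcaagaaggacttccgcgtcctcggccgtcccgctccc
PSMB3: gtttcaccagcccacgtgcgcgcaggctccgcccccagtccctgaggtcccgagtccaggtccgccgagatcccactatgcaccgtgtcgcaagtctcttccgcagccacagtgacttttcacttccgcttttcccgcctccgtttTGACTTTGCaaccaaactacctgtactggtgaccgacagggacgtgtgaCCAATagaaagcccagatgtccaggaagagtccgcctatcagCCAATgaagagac
PSMB9: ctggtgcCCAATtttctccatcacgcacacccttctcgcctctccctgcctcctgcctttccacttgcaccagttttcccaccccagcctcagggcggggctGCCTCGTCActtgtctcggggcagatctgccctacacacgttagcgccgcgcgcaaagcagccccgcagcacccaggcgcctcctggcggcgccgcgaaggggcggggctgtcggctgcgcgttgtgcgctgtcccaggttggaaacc
A promoter window of 300 bases (250 before the start and 50 after it) was given for 42 of the 48 members. A gene was counted if any window under its name held the motif on either strand. The antioxidant response element core stood in 15 of the 42 (35.7%) and in 16.1% of 27305 genes. The CCAAT box stood in 20 (47.6%, against 39.7% of all), the core of the NRF1 motif (GCGC repeated after any 2 bases) in 7 (16.7%, against 9.98%) and the interferon-stimulated core in 7 (16.7%, against 4.38%). The last 7 were *PSMA4*, *PSMB4*, *PSMB8*, *PSMB10*, *PSME1*, *PSME2* and *PSMG4*, so that *PSMB8* and *PSMB10* held it and *PSMB9* did not. A match of these letters is a description of the window only.

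In control cells the members spanned a wide range of TPM, a unit that corrects for transcript length and so allows genes to be compared. Together they took 6612 ± 452 TPM in A549 Control KD, 7234 ± 512 TPM in NCI-H23, 7828 ± 478 TPM in LN229 and 6715 ± 229 TPM in LN319. The highest was *PSMA4* in A549 (395 ± 42.9 TPM), *PSMA7* in NCI-H23 (621 ± 49.8 TPM), *PSMB4* in LN229 (834 ± 39.8 TPM) and *PSMB3* in LN319 (436 ± 20.01 TPM). In LN319 the next was *PSMB4* at 431 ± 16.8 TPM, which lay within the spread of *PSMB3*. *PSMB2* was the lowest member of the constitutive beta ring in each line, at 51.1 ± 8.07 TPM in A549 and 90.1 ± 10.1 TPM in LN229. Among the alpha ring genes, the highest stood 6.10 times above the lowest in A549 and 3.89 times in LN319. The lowest tested member was an inducible subunit in A549 (*PSMB9*, 9.98 ± 2.45 TPM), NCI-H23 (*PSMB8*, 17.3 ± 1.77 TPM) and LN319 (*PSMB10*, 15.1 ± 1.86 TPM), and *PSMD5* (23.7 ± 1.86 TPM) in LN229. The orders of *PSMB8* and *PSMB10* also differed between lines, with *PSMB8* at 64.8 ± 3.66 TPM in LN229 and 16.6 ± 4.07 TPM in A549, and *PSMB10* at 36.3 ± 6.61 and 37.8 ± 8.36 TPM.

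*PSMD5*, an assembly chaperone of the 19S cap, was nearly absent from LN319. Its levels were 0.686, 0.501 and 0.517 TPM in LN319 Luc Control KO, against 25.9, 22.7 and 22.7 TPM in LN229, 27.3, 31.1 and 31.2 TPM in A549 and 22.5, 25.1 and 27.7 TPM in NCI-H23 control cells. All 15 LN319 libraries lay at 0.344 to 1.17 TPM, so the gene did not pass the filter of 1 TPM in at least 4 libraries there. *PSMA8* and *PSMB11*, the alpha and beta subunits known from testis and thymus, stayed under 1 TPM in all 54 libraries and were not tested. The remaining 46 members were tested in A549, NCI-H23 and LN229, and 45 in LN319. Antisense and pseudogene rows carry related names, and PSMA3-AS1 reached 74.8 TPM and PSMC1P1 17.7 TPM in single libraries. How reads were divided between a member and an antisense row depends on the strand setting of the quantification, which is not given in the sources used here. The division between a member and a pseudogene row was not examined.

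In A549, *TRA2A/B* DKD lowered 13 members and raised 1. A change was called at an adjusted p under 0.05 (limma, Benjamini-Hochberg over all genes tested), and 16.3% of all genes were called lower and 14.3% higher. The largest fall was that of *PSMA4*, from 401, 435 and 349 TPM to 165, 146 and 189 TPM. The groups lay far apart, and the log2 fold change was -1.33 ± 0.148 (SE, adjusted p = 7.91e-05). *PSMB3* fell from 281, 307 and 212 TPM to 168, 173 and 184 TPM, and the DKD libraries were again the lower ones, at -0.67 ± 0.168 (SE, adjusted p = 0.0117). *PSMD6*, a scaffold subunit of the cap, had 72.9, 77.6 and 56.8 TPM in control and 45.8, 46.8 and 55.5 TPM in DKD libraries, with a log2 fold change of -0.56 ± 0.166 (SE, adjusted p = 0.0268). Here the lowest control and the highest DKD library differed little, and the call was lost in 6 of 16 alternative analyses. The exception in direction was *PSMB8*, which codes for the inducible counterpart of *PSMB5*. It rose from 18.5, 19.3 and 11.9 TPM to 31.5, 31.1 and 31.3 TPM, a log2 fold change of 0.87 ± 0.219 (SE, adjusted p = 0.0124), and its DKD libraries all lay above the control ones.

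By role, most of the A549 falls were in the cap when all control libraries were used. Control KD replicate 3 had 1169 TPM of alpha ring RNA, against 1489 and 1608 TPM in the other control libraries. Its 19S non-ATPase RNA was 1739 TPM, against 1584 and 1657 TPM. Without that library *PSMD1* was not called (-0.26), and the split by role was not counted. In the 19S cap, 3 of 6 ATPases fell, namely *PSMC1* (-0.42), *PSMC3* (-0.41) and *PSMC6* (-0.35, all as log2 fold changes). Of 11 non-ATPases 7 fell, among them *PSMD2* (-0.49) and *PSMD1* (-0.43), the large scaffold subunits to which ubiquitin receptors dock, *PSMD12* (-0.46), *PSMD7* (-0.31), *PSMD11* (-0.27) and *PSMD13* (-0.26). *PSMF1* fell by 0.38 on the same scale. In the core, *PSMA4* was the only one of 7 alpha genes called, and *PSMB3* the only one of 7 beta genes. None of the 3 cap chaperones, 4 activators or 4 core chaperones was called. Over the 46 members the median log2 fold change was -0.19, with 33 below 0, and over all genes it was 0.03.

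The A549 count moved with single libraries. Without Control KD replicate 3, 30 members were called (29 lower, 1 higher), with 37.8% of all genes, and the median was -0.31. *PSMA4* was then at -1.48 and *PSMB3* at -0.90, *PSMB8* rose by 0.58, and *PSMB5*, *PSMB6* and *PSMB7* were called at -0.30, -0.26 and -0.19. It was 9 without Control KD replicate 1 (with 27.6% of all genes), 8 without DKD replicate 1 and 9 without DKD replicate 2. With the TPM as deposited, without scaling, 9 members were called (8 lower), with 29.0% of all genes. The median of all genes then moved from 0.03 to 0.11, and the share of higher genes among all calls moved from 46.6 to 57.0%.

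The single knockdowns in A549 gave no call among the members by limma. After *TRA2A* KD, 0.0488% of all genes were called higher and 0.158% lower, and after *TRA2B* KD 0.280% and 0.0610%. At an unadjusted p under 0.05 there were 2 members after *TRA2A* KD, against 11.3% of all genes, and 3 after *TRA2B* KD, against 13.5%. The medians of the members were 0.18 and 0.17, and without Control KD replicate 3 they were 0.02 and -0.003. *PSMA4* had 398, 495 and 399 TPM in *TRA2A* KD and 402, 442 and 400.2 TPM in *TRA2B* KD, which overlapped the control libraries.

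In NCI-H23, *TRA2A/B* DKD lowered 30 members and raised none, while 23.2% of all genes were called lower and 20.0% higher. *PSMA4* again led, from 231, 272 and 273 TPM in control to 105, 87.1 and 110.1 TPM in DKD libraries, with a log2 fold change of -1.52 ± 0.0755 (SE, adjusted p = 1.53e-07). *PSME1*, which codes for the alpha chain of the PA28 activator, fell from 31.7, 45.5 and 42.9 TPM to 17.8, 16.6 and 19.6 TPM, at -1.29 ± 0.114 (SE, adjusted p = 7.59e-06). *PSMB9*, the inducible counterpart of *PSMB6*, fell from 35.3, 43.5 and 43.00 TPM to 17.9, 17.9 and 19.8 TPM, at -1.28 ± 0.0786 (SE, adjusted p = 6.36e-07). For these 3 genes each DKD library lay under each control library. *PSMA2*, in the alpha ring, was the only other member to fall by more than 1 on the log2 scale, as 5.74% of all genes did with a call, from 148, 190.5 and 224 TPM to 112, 84.8 and 103 TPM.

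The rings of the core fell nearly throughout in NCI-H23. Of the alpha ring 6 of 7 tested genes fell, with *PSMA6* at -0.66 and *PSMA7* at -0.63, and *PSMA1* was not called (-0.28, adjusted p = 0.15). Of the beta ring 6 of 7 fell, with *PSMB3* at -0.72 and *PSMB2* at -0.62, and all 3 inducible subunits fell as well. In the cap 5 of 6 ATPases fell, led by *PSMC5* (-0.51) and *PSMC3* (-0.49), and 5 of 11 non-ATPases, led by *PSMD6* (-0.57), *PSMD13* (-0.52) and *PSMD7* (-0.50). *PSMD2*, *PSMD4*, *PSMD8*, *PSMD12* and *PSMD14*, cap subunits that include the ubiquitin receptor *PSMD4* and the deubiquitinase *PSMD14*, had values between -0.10 and 0.01 and were not called. The core chaperones *PSMG1* (-0.50), *PSMG3* (-0.47) and *PSMG4* (-0.68) fell, whereas none of the cap chaperones was called. The median over the members was -0.35, against 0.02 over all genes. With the TPM as deposited, 20 members were called (19 lower, 1 higher), with 42.6% of all genes, and the median of all genes was then 0.17. The share of higher genes among all calls then rose from 46.2 to 63.0%.

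After either single knockdown in NCI-H23 no member was called by limma. In *TRA2A* KD 5 members had an unadjusted p under 0.05, as 13.6% of all genes did, and the smallest adjusted p were those of *PSMC5* (-0.22, adjusted p = 0.0759) and *PSMD7* (-0.29, adjusted p = 0.0779), with 0.374% of all genes called higher and 0.601% lower. In *TRA2B* KD 3 members had an unadjusted p under 0.05, as 10.6% of all genes did, and 0.160% and 0.0368% of all genes were called. *PSMB8* had the smallest adjusted p there, at 0.38, adjusted p = 0.239. The medians were -0.05 and -0.0002.

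**Figure D1:**
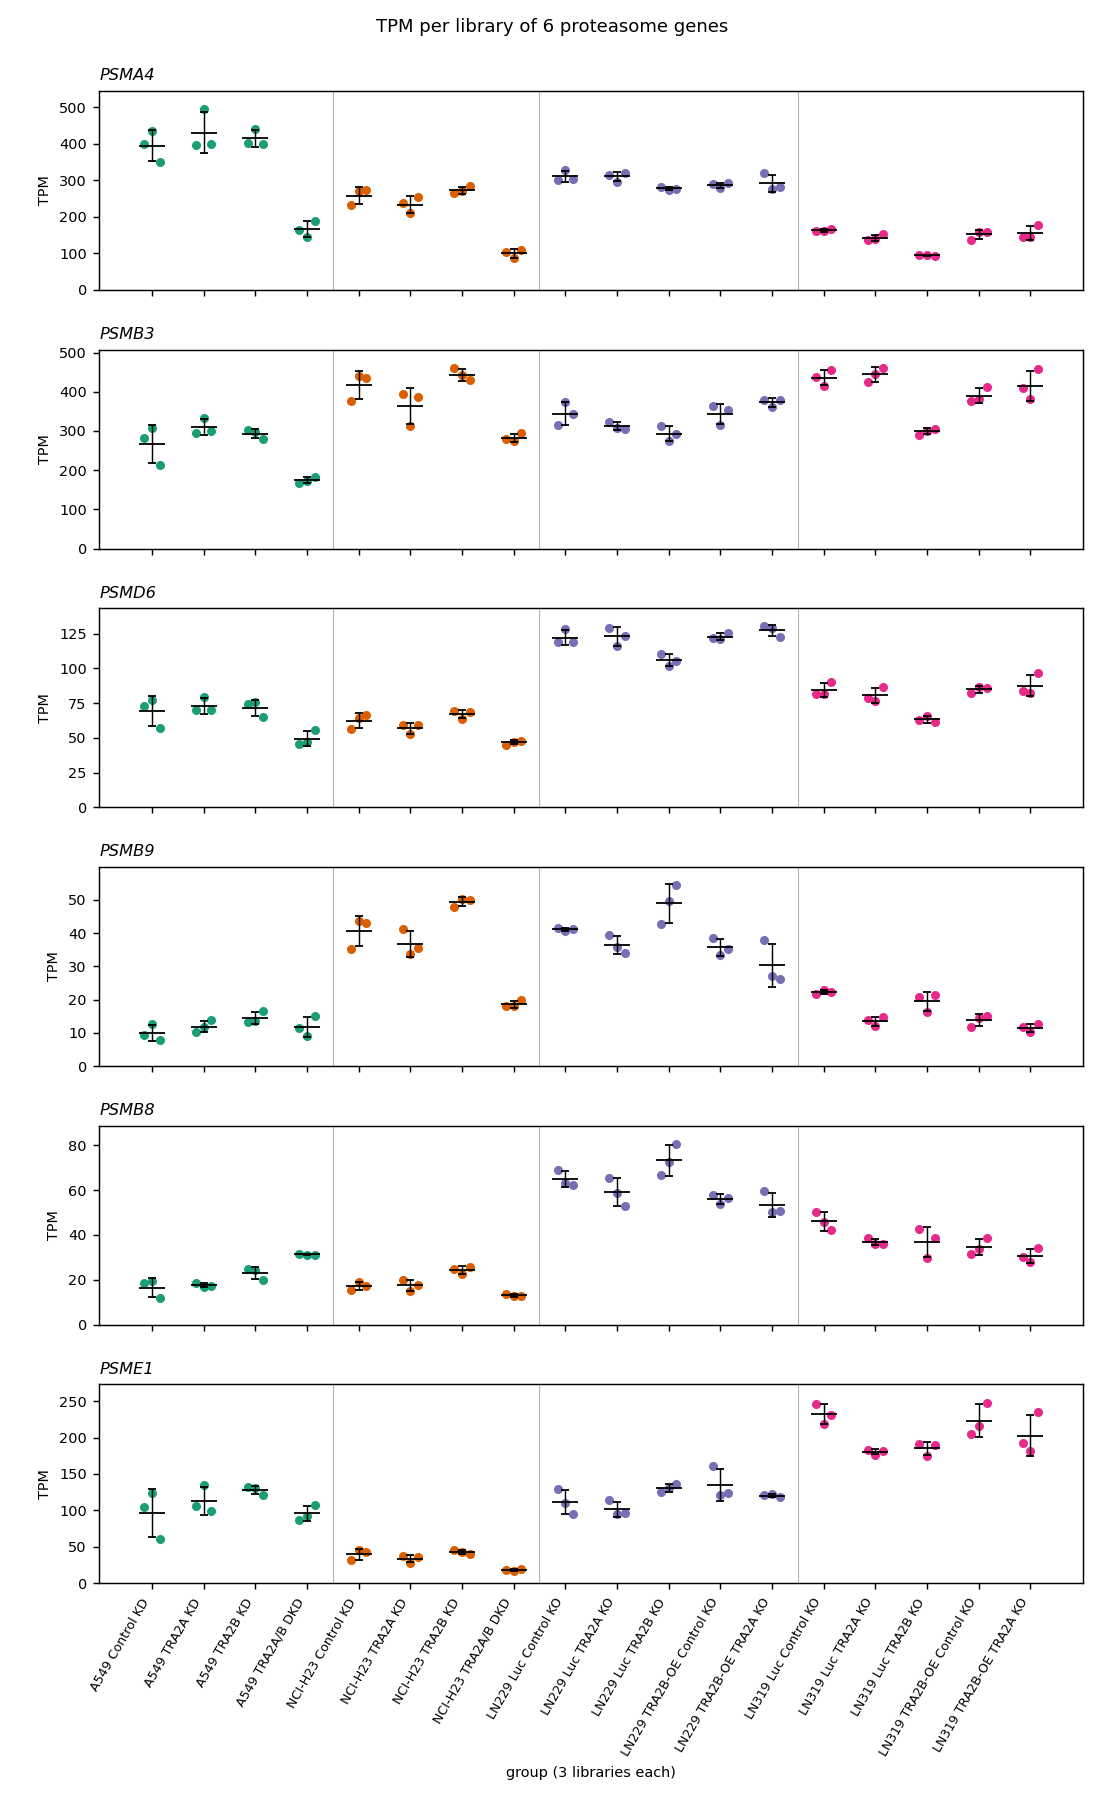
TPM of 6 proteasome genes (vertical axis, linear from 0) in each of the 54 libraries, by group along the horizontal axis, with 1 point a library and bars for the mean ± SD of 3. *PSMA4* lies at 146 to 189 TPM in A549 *TRA2A/B* DKD and at 87.1 to 110.1 TPM in NCI-H23 *TRA2A/B* DKD, under every control library of its line, and *PSMB8* lies at 31.1 to 31.5 TPM in A549 *TRA2A/B* DKD against 11.9 to 19.3 TPM in control.

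The DKD differed from the sum of the single knockdowns for 9 members in A549 and 19 in NCI-H23, and for each of them it lay lower. The test was the contrast DKD minus both single knockdowns plus control, in the same limma fit, in which 8.89% of all genes were called lower and 5.84% higher in A549, against 12.8% and 8.23% in NCI-H23. For *PSMA4* the difference was -1.76 ± 0.209 (SE, adjusted p = 0.000406) in A549 and -1.36 ± 0.107 (SE, adjusted p = 1.90e-05) in NCI-H23, where the single knockdown libraries had 209.6 to 284 TPM. *PSMB3* differed by -1.30 ± 0.238 (SE, adjusted p = 0.00545) in A549, with 280.2 to 332 TPM in the single knockdowns. It differed by -0.51, adjusted p = 0.00565 in NCI-H23, with 312 to 459.8 TPM. In A549, the single knockdown libraries of both genes lay within or above the range of the control libraries and the DKD libraries lay below it. With the TPM as deposited, 4 members were called in A549 and 11 in NCI-H23, with 13.8 and 18.4% of all genes. The share of higher genes among all calls then moved from 39.6 to 72.7% and from 39.1 to 49.5%.

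The other A549 members were *PSMA3* (-1.16, adjusted p = 0.019), *PSMD6* (-0.94, adjusted p = 0.0228), *PSMA7* (-0.77, adjusted p = 0.0404), *PSMB5* (-0.69, adjusted p = 0.0491), *PSMD13* (-0.54, adjusted p = 0.0153), *PSMC6* (-0.54, adjusted p = 0.0152) and *PSMC3* (-0.46, adjusted p = 0.0316). Of these, *PSMA3*, *PSMA7* and *PSMB5* were not called in the DKD itself, where *PSMA3* had 97.2, 85.2 and 117 TPM against 138, 147 and 101 TPM in control. The calls of *PSMA7*, *PSMB5* and *PSMC3* were lost in 13, 14 and 13 of the alternatives tried. Without Control KD replicate 3, 17 members were called, with 22.2% of all genes, and without Control KD replicate 2, 15. Without replicate 3 the differences were -1.57 for *PSMA4*, -1.03 for *PSMB3* and -0.89 for *PSMA3*. Without *TRA2B* KD replicate 1 the count was 5, and it was 4 without *TRA2B* KD replicate 2 or DKD replicate 2.

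In NCI-H23, *PSMB9* followed *PSMA4* with -1.32 ± 0.111 (SE, adjusted p = 2.93e-05), and its single knockdown libraries had 33.6 to 50.4 TPM. *PSME1* differed by -1.09 ± 0.161 (SE, adjusted p = 0.000963), with 28.4 to 46.4 TPM, and *PSMA2* by -1.06 ± 0.176 (SE, adjusted p = 0.00194), with 164 to 206 TPM. *PSMB8* (-0.98, adjusted p = 0.000875) had values on both sides of the control, with 25.04, 22.5 and 25.5 TPM in *TRA2B* KD, 15.4, 18.9 and 17.4 TPM in control and 13.7, 12.7 and 12.7 TPM in DKD libraries, of which only the last differed by an adjusted p under 0.05. *PSMB10* (-0.79), *PSMA6* (-0.55), *PSMB2* (-0.53), *PSMD13* (-0.49), *PSMA7* (-0.48), *PSMD6* (-0.45), *PSMC3* (-0.44) and *PSMA5* (-0.42) were also called. The smallest differences called were those of *PSMB1* (-0.37), *PSMB6* (-0.35), *PSMB7* (-0.30), *PSMC5* (-0.23) and *PSMD3* (-0.20), and *PSMD3* turned to 0.02 under quantile normalization. The count was 12 without *TRA2B* KD replicate 3.

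**Figure D2:**
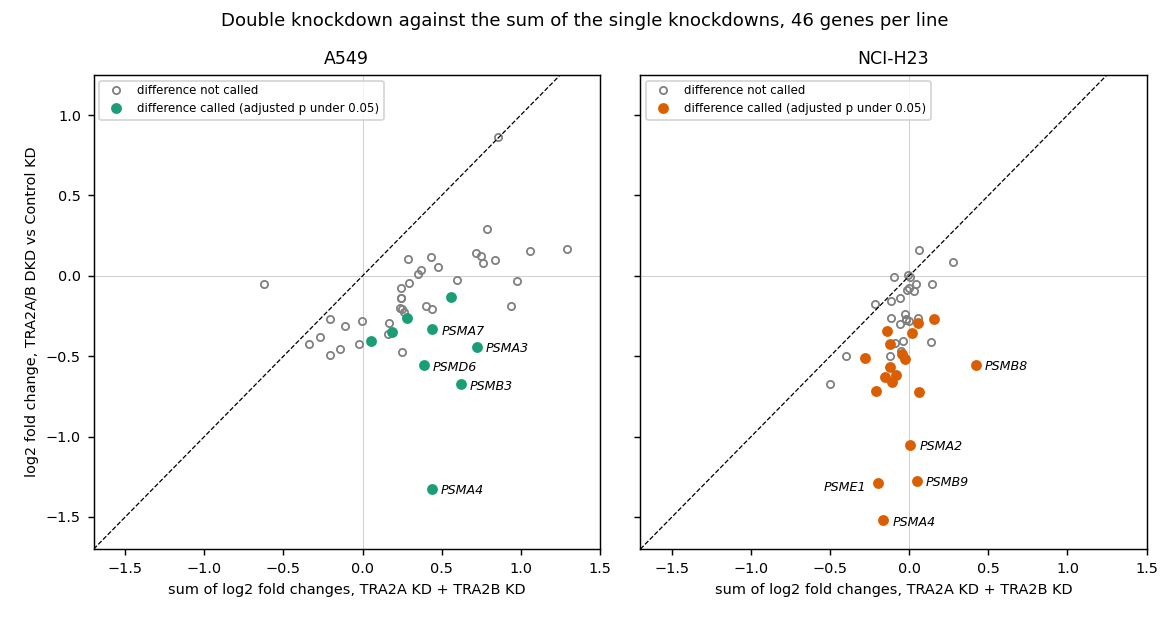
Log2 fold change of the *TRA2A/B* DKD (vertical axis) against the sum of the log2 fold changes of both single knockdowns (horizontal axis), 1 point for each of 46 genes, A549 left and NCI-H23 right, with the dashed line where both are equal. Filled points are the 9 and 19 members whose difference was called, all of which lie below the line, and the 5 lowest differences are named.

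In LN319, Luc *TRA2B* KO lowered 41 of 45 members and raised none, against 24.0% of all genes called lower and 18.6% higher. The called falls ranged from -0.88 to -0.18, and the median log2 fold change was -0.51 over the members and 0.02 over all genes. *PSMF1*, which codes for the core-binding protein PI31, fell most, from 98.6, 93.2 and 100.4 TPM in Luc Control KO to 53.4, 54.2 and 64.4 TPM in Luc *TRA2B* KO, at -0.88 ± 0.108 (SE, adjusted p = 8.34e-05). *PSMA4* fell from 161, 160.1 and 168 TPM to 96.8, 96.3 and 94.2 TPM, at -0.87 ± 0.111 (SE, adjusted p = 9.98e-05). *PSMC1*, an ATPase of the cap, fell from 272, 265 and 298 TPM to 177, 185 and 173 TPM, at -0.75 ± 0.0938 (SE, adjusted p = 9.06e-05). In each of the 3 genes the groups were well separated and the replicates close.

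All 7 tested alpha genes, all 7 constitutive beta genes, all 6 ATPases and all 11 non-ATPases fell in LN319 Luc *TRA2B* KO. The beta ring lay in the narrow range from -0.74 (*PSMB2*) to -0.55 (*PSMB4*), and the ATPases from -0.75 to -0.33 (*PSMC5*). *PSMD14*, the deubiquitinase of the cap, had the largest fall of its group at -0.75, from 79.9, 76.6 and 82.1 TPM to 50.6, 50.4 and 51.9 TPM. The cap chaperones *PSMD9* (-0.47) and *PSMD10* (-0.67) fell with it. The 4 members not called were *PSMB9* (-0.30, adjusted p = 0.111), *PSMG3* (-0.21, adjusted p = 0.071), *PSMG4* (-0.19, adjusted p = 0.121) and *PSME2* (0.01, adjusted p = 0.939), 1 of them the partner of *PSME1* in the PA28 ring. The smallest fall called was *PSMA1* (-0.18), which stood at 0.003 under quantile normalization. Mitochondrially encoded genes took 18.3 to 20.6% of these libraries and 12.1 to 12.8% of the control ones, and their part in the result was not tested. With the TPM as deposited, 38 members were called, with 42.6% of all genes. The median was then -0.40 with all genes at 0.12, and the share of higher genes among all calls moved from 43.7 to 56.4%.

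Luc *TRA2A* KO in the same line moved few members, and not in the same direction. *PSMB9* fell from 21.6, 22.9 and 22.1 TPM to 13.8, 12.00 and 14.6 TPM, a log2 fold change of -0.68 ± 0.145 (SE, adjusted p = 0.00849), while 7.44% of all genes were called lower. *PSMD2* rose from 315, 323 and 322 TPM to 363, 368 and 374 TPM, at 0.24 ± 0.0515 (SE, adjusted p = 0.00894), and 6.82% of all genes were called higher. The groups did not overlap in either gene. *PSME4*, which codes for the nuclear activator PA200, had 26.1, 26.2 and 26.03 TPM in control and 29.2, 29.6 and 27.8 TPM in *TRA2A* KO libraries, at 0.18 ± 0.0543 (SE, adjusted p = 0.0422), a call lost in 12 of 16 alternatives. The median of the 45 members was 0.08, and 28 lay above 0. Both knockouts share the Luc Control KO libraries, so they were also set directly against each other, a contrast chosen after the values had been seen. Luc *TRA2B* KO then had 39 members lower than Luc *TRA2A* KO and 2 higher, against 26.1% and 21.0% of all genes. *PSMC1* (-0.92), *PSMB7* (-0.89) and *PSMB2* (-0.88) were lowest, and *PSMB9* (0.38, adjusted p = 0.0472) and *PSME2* (0.33, adjusted p = 0.0354) were the higher ones.

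*TRA2B* overexpression gave small differences in LN319. With control guides, *PSMB9* was the 1 member called, at 11.9, 14.6 and 15.1 TPM against 21.6, 22.9 and 22.1 TPM in Luc Control KO (-0.77 ± 0.145 SE, adjusted p = 0.0163), with 2.16% of all genes called lower and 2.16% higher. Although no other member was called, 42 of 45 log2 fold changes were below 0, with a median of -0.22, and 23 members were lower without overlap of the scaled values, as 15.3% of all genes were. When both groups overexpressed *TRA2B*, no member was called after *TRA2A* KO by limma, and 1.29% of all genes were called lower and 1.48% higher. At an unadjusted p under 0.05 there were 13 members, against 18.0% of all genes. *PSMB9* had 11.8, 10.1 and 12.5 TPM there. The call of *PSMB9* and the count moved with single libraries, as 8 members were called without TRA2B-OE Control KO replicate 3, 2 without Luc Control KO replicate 2, and 0 without Luc Control KO replicate 3 or TRA2B-OE Control KO replicate 1. Whether TRA2B-OE altered the *TRA2A* KO log2 fold changes was tested as a difference of differences, which limma called for 0 members in either glioma line, with 2 in LN319 and 1 in LN229 at an unadjusted p under 0.05, against 7.91 and 5.78% of all genes. Of all genes, 0.0207% were called higher and 0% lower by this test in LN319, and 0% in LN229.

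In LN229 no member was called in any of the 4 comparisons with a control, by limma at an adjusted p under 0.05. For Luc *TRA2B* KO 0.346% of all genes were called lower and 0.211% higher, for Luc *TRA2A* KO 1.83% and 1.96%, for TRA2B-OE Control KO 0.303% and 0.725%, and for *TRA2A* KO under overexpression 3.88% and 2.17%. At an unadjusted p under 0.05 there were 26, 5, 5 and 4 members in the same order, against 23.3, 21.6, 14.3 and 22.2% of all genes. The members of Luc *TRA2B* KO lay below the control in 40 of 46 cases, with a median of -0.21 and all genes at 0.00. *PSMD6* had the smallest adjusted p, with 119, 128 and 119 TPM in control and 110.3, 102 and 106 TPM in Luc *TRA2B* KO libraries (-0.26 ± 0.0661 SE, adjusted p = 0.0774). *PSMA4* had 302, 327 and 304 TPM and 282, 274 and 278 TPM (-0.21 ± 0.0676 SE, adjusted p = 0.114). These groups lay side by side without overlap, as did the scaled values of 17 members that were lower, against 13.0% of all genes. Without Luc Control KO replicate 1 the fit called 25 members, all lower, with 21.0% of all genes. Without Luc Control KO replicate 2 it called 0, with 0.0163% of all genes.

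Set directly against Luc *TRA2A* KO in LN229, again a contrast chosen after the values were seen, Luc *TRA2B* KO had 25 members lower and 3 higher, against 18.6% and 15.5% of all genes. *PSMD2* had 318, 383 and 404 TPM in Luc *TRA2A* KO and 209, 199.9 and 202 TPM in Luc *TRA2B* KO, a log2 fold change of -0.92 ± 0.169 (SE, adjusted p = 0.00202). *PSMD2* also varied between control libraries, with 213, 309 and 310.5 TPM. *PSMG1* followed at -0.76 ± 0.145 (SE, adjusted p = 0.00242) and *PSMD11* at -0.63 ± 0.105 (SE, adjusted p = 0.00126). The 3 higher members were *PSME2* (0.40, adjusted p = 0.0179), *PSMB9* (0.35, adjusted p = 0.0316) and *PSMB8* (0.24, adjusted p = 0.0489), while *PSMB10* had -0.17, adjusted p = 0.294. The count was 15 without Luc *TRA2B* KO replicate 2, 17 without Luc *TRA2B* KO replicate 3 or Luc *TRA2A* KO replicate 3, 18 without Luc *TRA2A* KO replicate 2 and 16 without the filter on low values, and the 3 higher calls were lost in each of these except for 1 of them without Luc *TRA2B* KO replicate 3.

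**Figure D3:**
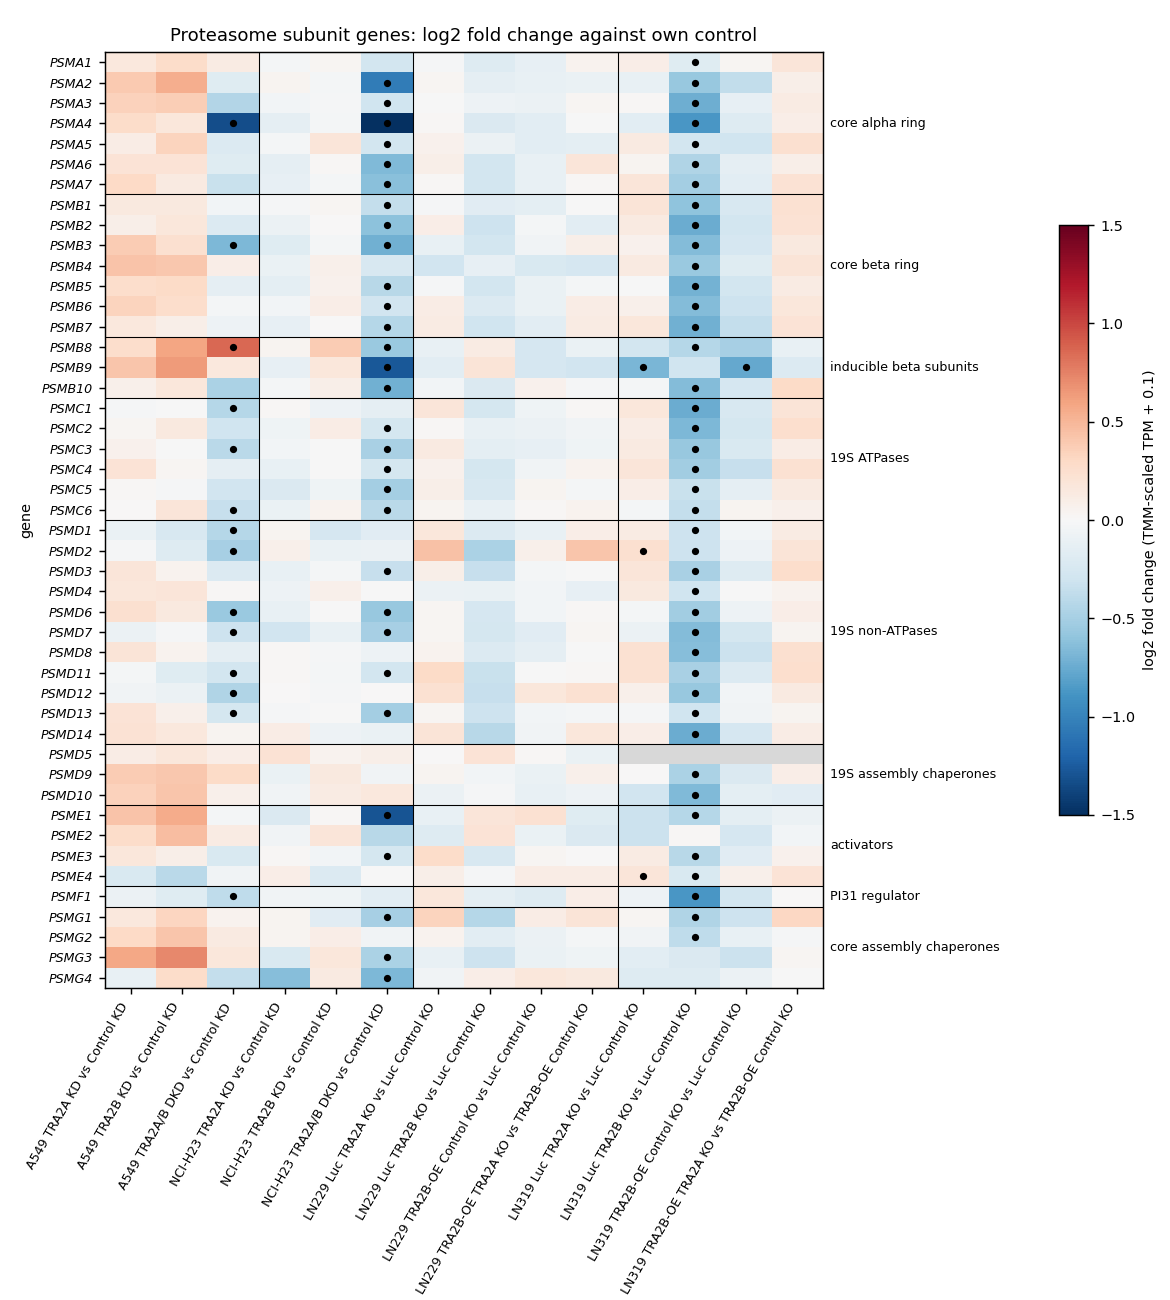
Log2 fold change (colour, TMM-scaled TPM + 0.1) of the members that passed the filter (rows, grouped by role) in the 14 comparisons with a control (columns), with a dot where the adjusted p was under 0.05 and grey where a gene was not tested. Dots fill 30 rows of the NCI-H23 *TRA2A/B* DKD column, 41 rows of the LN319 Luc *TRA2B* KO column and 14 rows of the A549 *TRA2A/B* DKD column, and the LN229 columns have none.

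The constitutive catalytic subunits and their inducible counterparts are given side by side, and the difference between both sets was not tested. In A549 *TRA2A/B* DKD, *PSMB5* (216, 263 and 195 TPM in control, 194, 218 and 233 TPM in DKD), *PSMB6* (312, 327 and 227 and 273, 298 and 318 TPM) and *PSMB7* (209, 219.9 and 194 and 202, 206 and 217 TPM) were not called, while *PSMB8* rose. *PSMB9*, with 9.41, 12.7 and 7.87 TPM in control and 11.3, 9.02 and 14.98 TPM in DKD, and *PSMB10*, with 38.6, 45.7 and 29.03 and 18.2, 37.3 and 32.9 TPM, overlapped between the groups. In NCI-H23 DKD all 6 fell. *PSMB5* (188, 218 and 206 to 181, 152 and 179 TPM, -0.42), *PSMB6* (352, 417 and 372 to 360.4, 336 and 339.6 TPM, -0.29) and *PSMB7* (288, 327 and 331 to 259, 261 and 263 TPM, -0.42) had smaller falls than *PSMB9* (-1.28), *PSMB10* (36.2, 41.1 and 38.9 to 30.5, 21.9 and 26.4 TPM, -0.73) and *PSMB8* (-0.55). In LN319 Luc *TRA2B* KO the order was the other way, with *PSMB5* (202, 178 and 200.4 to 121, 129.7 and 130.3 TPM, -0.71), *PSMB6* (319, 291 and 298 to 195, 212 and 215 TPM, -0.65) and *PSMB7* (209, 195 and 214 to 131, 136 and 136 TPM, -0.72) lower and *PSMB8* (50.3, 45.8 and 42.04 to 42.6, 29.7 and 38.8 TPM, -0.43) and *PSMB9* (21.6, 22.9 and 22.1 to 20.9, 16.2 and 21.5 TPM, -0.30) less so. *PSMB10*, with 17.3, 13.9 and 14.3 TPM in control and 10.9, 10.1 and 9.94 TPM in Luc *TRA2B* KO, had -0.65 there, near the constitutive genes.

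As a ratio within each library, the summed TPM of *PSMB8*, *PSMB9* and *PSMB10* was 10.5, 10.8 and 10.9% of that of *PSMB5*, *PSMB6* and *PSMB7* in NCI-H23 Control KD and 7.76, 7.02 and 7.53% in DKD. In LN319 it was 12.2, 12.4 and 11.02% in Luc Control KO, 9.52, 8.41 and 8.94% in Luc *TRA2A* KO and 16.6, 11.7 and 14.6% in Luc *TRA2B* KO. The NCI-H23 DKD and LN319 Luc *TRA2A* KO libraries lay under all control libraries of their line, while LN319 Luc *TRA2B* KO overlapped the control. LN229 had the highest ratios, with 21.3 ± 3.70% in Luc Control KO, 18.6 ± 1.67% in Luc *TRA2A* KO and 26.7 ± 3.01% in Luc *TRA2B* KO (mean ± SD, n = 3), and A549 went from 8.84 ± 0.856% in control to 10.1 ± 0.836% in DKD. With 3 libraries against 3, an exact two-sided permutation test cannot go below p = 0.1, and the ratio was not tested.

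**Figure D4:**
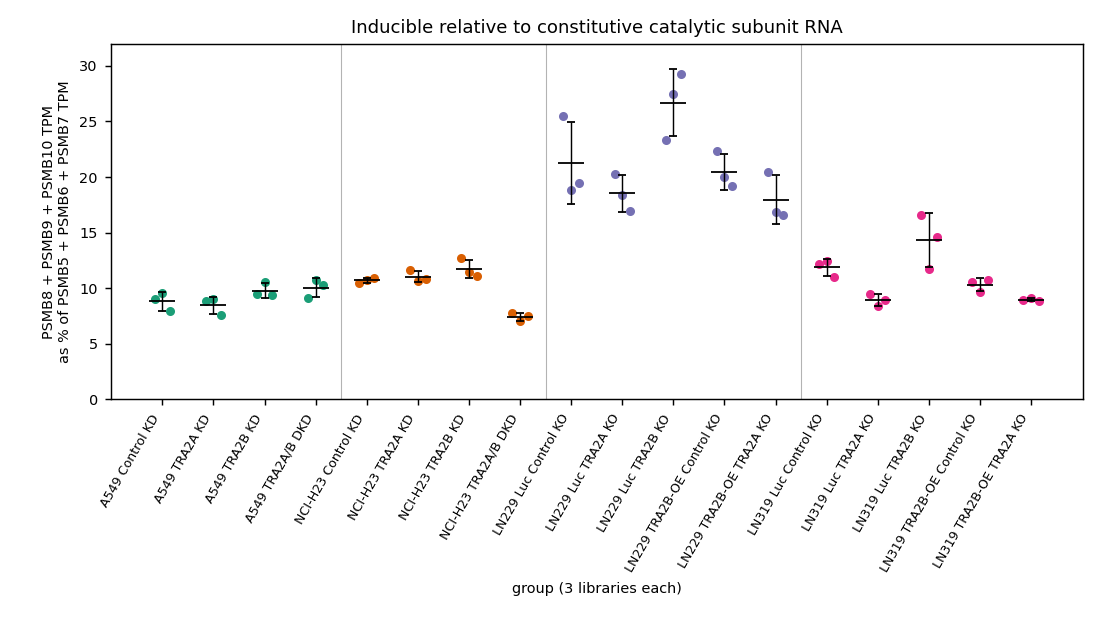
Summed TPM of *PSMB8*, *PSMB9* and *PSMB10* as a percent of the summed TPM of *PSMB5*, *PSMB6* and *PSMB7* (vertical axis, from 0) in each library, by group, with 1 point a library and bars for the mean ± SD of 3. NCI-H23 *TRA2A/B* DKD sits at 7.76, 7.02 and 7.53% under its control at 10.5, 10.8 and 10.9%, and the LN229 groups sit highest.

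Members lower in several lines were counted from the calls with all libraries. Without A549 Control KD replicate 3, 29 members were lower in A549 DKD, and the overlaps were not counted for them. Of the 13 members lower in A549 DKD, 8 (61.5%) were also lower in NCI-H23 DKD, which is 26.7% of the 30 there, and 13 (100%) were lower in LN319 Luc *TRA2B* KO, 31.7% of the 41. NCI-H23 DKD and LN319 Luc *TRA2B* KO shared 27, 90.0% of the first and 65.9% of the second. These comparisons share no library, but with most members called in the last, a large overlap is fixed by the counts. In NCI-H23 DKD 30 of the 46 members tested were lower, so 8 of 13 is about the share that these counts alone give. How many of all genes were lower in more than 1 of these comparisons was not counted. Lower in all 3 were *PSMA4*, *PSMB3*, *PSMC3*, *PSMC6*, *PSMD6*, *PSMD7*, *PSMD11* and *PSMD13*. The cap members among them had modest falls, as *PSMC3* went from 199.6 to 242 to 154 to 195 TPM in A549, from 174 to 184 to 134 to 157 TPM in NCI-H23 and from 184 to 195 to 137 to 143 TPM in LN319. *PSMD7*, the partner of the deubiquitinase *PSMD14*, went from 120.2 to 159 to 107 to 123 TPM, from 102 to 104 to 79.3 to 82.8 TPM and from 73.2 to 75.2 to 49.9 to 52.7 TPM in the same lines. For *PSMC6* the values were 89.97 to 99.7 and 74.5 to 84.2 TPM in A549, 77.3 to 90.9 and 62.2 to 84.8 TPM in NCI-H23, and 131 to 136 and 107 to 118 TPM in LN319. *PSMD11* and *PSMD13*, both of the cap's lid, had log2 fold changes of -0.27 and -0.26 in A549, -0.28 and -0.52 in NCI-H23, and -0.49 and -0.30 in LN319. Across the members, the log2 fold changes of A549 DKD and NCI-H23 DKD had a Pearson correlation of 0.30 (n = 46), against 0.54 over all genes. For NCI-H23 DKD and LN319 Luc *TRA2B* KO the value was 0.06 (n = 45), against 0.26. *PSMD5* and *PSME2* were called in none of the 14 comparisons with a control.

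Of 20 pathway genes outside the naming rule, all were tested. After A549 DKD 4 rose and 5 fell, with 14.3% of all genes called higher and 16.3% lower. After NCI-H23 DKD 5 rose and 8 fell, against 20.0% and 23.2% of all genes, and after LN319 Luc *TRA2B* KO 2 rose and 13 fell, against 18.6% and 24.0%. *NFE2L1*, the regulator of proteasome genes, rose from 109.7, 106 and 108 TPM to 194, 193 and 168 TPM in A549 DKD (0.70 ± 0.128 SE, adjusted p = 0.00208) and from 93.1, 86.2 and 86.99 TPM to 126, 137 and 154 TPM in NCI-H23 DKD (0.49 ± 0.105 SE, adjusted p = 0.00327), and fell by 0.20 in LN319 Luc *TRA2B* KO. In both DKD groups its libraries lay above all control libraries. *NGLY1*, the glycanase that *NFE2L1* needs for its activation, fell in both, from 13.8, 13.2 and 13.6 TPM to 6.10, 5.02 and 6.60 TPM in NCI-H23 (-1.34 ± 0.0942 SE, adjusted p = 1.56e-06) and by 0.93 in A549. It was also the 1 pathway gene called in LN229 Luc *TRA2B* KO (-0.56, adjusted p = 0.015). In the lung lines *ZFAND2A* (0.97 in A549, 0.75 in NCI-H23) and *PAAF1* (0.49, 0.54), an inhibitor of cap and core joining, rose. The proteasome-bound proteins *UCHL5* (-0.61, -0.50), *ADRM1* (-0.40, -0.35) and *UBE3C* (-0.35, -0.54) and the segregase *VCP* (-0.51, -0.28) fell. *NFE2L2* rose in A549 (0.91) and was not called in NCI-H23, and *TXNL1* (0.31), *USP14* (0.37), *UBB* (-0.47) and *SHFM1* (-0.56) were called in NCI-H23.

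In LN319 Luc *TRA2B* KO the ubiquitin genes *RPS27A* and *UBB* fell, by 0.75 and 0.63 on the log2 scale. *POMP*, the maturation factor of the core, fell from 81.4, 72.1 and 83.9 TPM to 54.01, 48.98 and 49.2 TPM (-0.75 ± 0.123 SE, adjusted p = 0.000466) and in NCI-H23 DKD by 0.47, and was not called in A549. *SHFM1*, a small cap subunit outside the naming rule, was at -0.83, and *ADRM1*, *TXNL1*, *UCHL5*, *USP14*, *VCP*, *NFE2L2*, *NGLY1* and *ZFAND2A* lay between -0.51 and -0.26. *DDI2* (0.22), the protease that activates *NFE2L1*, and *IPO9* (0.15) rose. In Luc *TRA2A* KO of the same line 0 of 20 were called, against 6.82% of all genes called higher and 7.44% lower. Single genes were called elsewhere, *NGLY1* (0.38) in LN229 TRA2B-OE Control KO, *SHFM1* (-0.76) in LN229 and *ADRM1* (0.34) in LN319 after *TRA2A* KO under overexpression, and none in the single knockdowns of the lung lines. Between the knockouts of a line, contrasts chosen after the values were seen, Luc *TRA2B* KO had 12 of the 20 lower than Luc *TRA2A* KO in LN229 and 13 in LN319. Of all genes, 18.6% were called lower and 15.5% higher in LN229, and 26.1% and 21.0% in LN319.

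Of 7 interferon and antigen-processing genes, those beside the inducible subunits did not follow 1 direction. Of all genes, 23.2% were called lower and 20.0% higher in NCI-H23 DKD, and 16.3% and 14.3% in A549 DKD. In LN319 Luc *TRA2B* KO the shares were 24.0% and 18.6%, and the counts of the list were not tested against them. In NCI-H23 DKD 2 fell, *TAP1* from 45.05, 47.7 and 43.01 TPM to 18.6, 20.7 and 19.6 TPM (-1.36 ± 0.0841 SE, adjusted p = 6.75e-07) and *TAPBP* (-0.33). *TAP1* codes for a subunit of the peptide transporter and overlaps the annotated span of *PSMB9* (-1.28). Whether their transcripts share sequence, and so whether their values share reads, was not examined. In A549 DKD, *IRF1* rose (0.71) and *TAPBP* (-0.77) fell, in the same libraries in which *PSMB8* rose. In LN319 Luc *TRA2B* KO, *ERAP1* (0.38), *NLRC5* (0.46) and *TAP2* (0.49) rose and *IRF1* (-0.36) fell. Against Luc *TRA2A* KO, Luc *TRA2B* KO had *B2M* (0.33) and *ERAP1* (0.32) higher in LN229, and *TAP1* (0.56) and *NLRC5* (0.92) higher in LN319. In these contrasts 15.5% and 21.0% of all genes were called higher. *ERAP1* (-0.37) was the 1 gene of the list called in LN229 after *TRA2A* KO under overexpression, where 3.88% of all genes were called lower.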

How the data were processed

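RNA was measured in 54 libraries, poly(A)-selected and strand-preserving, sequenced in pairs of 150 bases. The authors quantified transcripts with kallisto 0.48.0 on Gencode v34 (hg38) and deposited TPM (length-corrected transcript shares of a library) per gene name for each cell line. STAR 2.7.3 also stands in the submitters' processing notes. TPM keep no read depth, so no counting interval is given, and the count-based limma-voom test of the study was not repeated.

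A gene was kept in a line if 4 or more libraries had 1 TPM or more. TPM were scaled by unweighted TMM (trims of 30% and 5%), and log2(TPM + 0.1) was fitted with limma 3.58.1 (R 4.3.3, trend) over all libraries of the line. Fold changes are on that log2 scale, which understates the changes of low genes. Adjusted p-values are Benjamini-Hochberg over all genes tested, and a call is an adjusted p under 0.05. The scripts were tested on simulated data. There were 14 comparisons, 4 tests of a difference between comparisons and, chosen after the values were seen, 2 contrasts between knockouts of a line. Alternatives were other pseudocounts, filters and normalizations, a fit of only the groups compared, a replicate block, removal of a length and GC trend, and leaving out each replicate.

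The members and lists were chosen with earlier results of these data known. Named in full were the called members with the largest rise and fall of each comparison (up to 3 each way above 10 calls), *PSMB5* to *PSMB10* among the catalytic genes, the members called in most comparisons and those called in difference tests, the smaller of the latter by their differences only. Promoters came from RefSeq (GRCh38.p14). Marker lists were epithelial, lung lineage, glial and leukocyte genes. Some genes of the pathway and interferon lists are not reported here and are not in their counts.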

Additional observations from a re-analysis of the deposited data

Results flagged for a closer look

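For 28 results the response to the *TRA2A/B* DKD differed from the sum of both single knockdowns by a test of that difference (limma, adjusted p under 0.05), and in each the DKD lay lower. In A549 the differences on the log2 scale were -1.76 for *PSMA4*, -1.30 for *PSMB3*, -1.16 for *PSMA3*, -0.94 for *PSMD6*, -0.77 for *PSMA7*, -0.69 for *PSMB5*, -0.54 for *PSMD13*, -0.54 for *PSMC6* and -0.46 for *PSMC3*. In NCI-H23 the inducible and activator genes were among the larger ones, with -1.32 for *PSMB9*, -1.09 for *PSME1*, -0.98 for *PSMB8* and -0.79 for *PSMB10*. The alpha ring genes there had -1.36 (*PSMA4*), -1.06 (*PSMA2*), -0.55 (*PSMA6*), -0.48 (*PSMA7*) and -0.42 (*PSMA5*). The beta ring genes had -0.53 (*PSMB2*), -0.51 (*PSMB3*), -0.37 (*PSMB1*), -0.35 (*PSMB6*) and -0.30 (*PSMB7*). The cap genes had -0.49 (*PSMD13*), -0.45 (*PSMD6*), -0.44 (*PSMC3*), -0.23 (*PSMC5*) and -0.20 (*PSMD3*).

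In 5 genes the perturbed group lay above its control in 1 line and below it in the other line of the same tissue. The scaled values of the groups did not overlap in either line. The share of all genes that met this rule was not counted, so the number 5 says nothing particular about the members. The difference between the lines was not tested. After *TRA2A* KD *PSMB3* had a log2 fold change of 0.38 in A549 and -0.19 in NCI-H23. The median of the members in A549 *TRA2A* KD was 0.18, and 0.02 without Control KD replicate 3. After *TRA2A/B* DKD *PSMB8* had 0.87 in A549 and -0.55 in NCI-H23, both called. After Luc *TRA2B* KO *PSMB9* had 0.19 in LN229 and -0.30 in LN319, and *PSMG4* had 0.10 and -0.19. After *TRA2A* KO under *TRA2B* overexpression *PSMB4* had -0.26 in LN229 and 0.19 in LN319. Of these 10 values, only those of *PSMB8* had an adjusted p under 0.05.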

How the results depend on the processing

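Changes of direction are given only for members called in the comparisons with a control and in the difference tests. Among these calls, the only changes under the alternatives were *PSMD3* in the NCI-H23 non-additivity test (0.0195) and *PSMA1* in LN319 Luc *TRA2B* KO (0.00336), both under quantile normalization. Values not called did change sign, as *PSMB6* in A549 DKD, which was 0.10 without Control KD replicate 1 and -0.26 without Control KD replicate 3. For that method, the counts of members called were 6 in A549 DKD, 4 and 12 in the A549 and NCI-H23 non-additivity tests, 1 in NCI-H23 *TRA2A* KD, 1 in LN229 Luc *TRA2A* KO, 9 in LN319 Luc *TRA2A* KO, 2 in LN319 TRA2B-OE Control KO and 1 in LN319 TRA2B-OE *TRA2A* KO, and the medians of the members were -0.20 in NCI-H23 DKD, -0.13 in LN229 Luc *TRA2B* KO, -0.34 in LN319 Luc *TRA2B* KO and -0.11 in LN319 TRA2B-OE Control KO. With the TPM as deposited the counts were 9, 4, 11, 1, 1, 6, 2 and 1 in the same order of comparisons, and the medians were -0.19 in NCI-H23 DKD, 0.11 in NCI-H23 *TRA2B* KD, -0.40 in LN319 Luc *TRA2B* KO and -0.13 in LN319 TRA2B-OE Control KO. The share of higher genes among all calls then moved from 47.8 to 33.9% in LN319 Luc *TRA2A* KO, from 50.0 to 72.2% in LN319 TRA2B-OE Control KO, from 44.6 to 60.6% between the LN319 knockouts and from 45.4 to 56.7% between the LN229 knockouts. With only the groups compared, 3 members were called in A549 DKD and 0 in LN319 TRA2B-OE Control KO. Without the filter the NCI-H23 DKD median was -0.43, and with a minimum of 5 TPM it was -0.29, with counts of 1 in LN229 Luc *TRA2A* KO, 3 in LN319 TRA2B-OE Control KO and 4 in LN319 TRA2B-OE *TRA2A* KO. The shares of all genes called with only the groups compared or with other filters are not given here. Those counts alone therefore say nothing particular about the members.

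Replicate numbers did not pair the samples, since same-numbered libraries of different groups correlated above 0.1 in 3 of 18, 1 of 18, 3 of 30 and 0 of 30 pairs in A549, NCI-H23, LN229 and LN319. With a replicate block the counts were 3 in LN229 Luc *TRA2A* KO, 8 in LN229 Luc *TRA2B* KO, 1 in LN229 TRA2B-OE *TRA2A* KO, 6 in LN319 Luc *TRA2A* KO, 12 in LN319 TRA2B-OE Control KO and 2 in LN319 TRA2B-OE *TRA2A* KO. With the block and the length and GC trend removed they were 3, 11, 2, 9, 15 and 3, and with the trend alone 1 in LN229 Luc *TRA2A* KO, 6 in LN319 Luc *TRA2A* KO, 5 in LN319 TRA2B-OE Control KO and 1 in LN319 TRA2B-OE *TRA2A* KO, with an LN319 Luc *TRA2B* KO median of -0.42 with or without the block. With the trend alone removed, 4.99, 17.4, 6.62 and 4.23% of all genes were called in the same order. The shares with the block are not given here, so the block counts cannot be set against all genes. Lengths were known for every member tested, but for 78.4 and 78.2% of all genes tested in LN229 and LN319.

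Leaving out single replicates, members called ranged from 8 to 30 in A549 DKD, 4 to 17 and 12 to 25 in the non-additivity tests of A549 and NCI-H23, 26 to 29 in NCI-H23 DKD, 38 to 42 in LN319 Luc *TRA2B* KO, 0 to 25 in LN229 Luc *TRA2B* KO, 0 to 8 in LN319 TRA2B-OE Control KO, 2 to 3 in LN319 Luc *TRA2A* KO, and 0 to 1 in NCI-H23 *TRA2A* KD, LN229 Luc *TRA2A* KO, LN229 TRA2B-OE *TRA2A* KO and LN319 TRA2B-OE *TRA2A* KO. Medians ranged from 0.02 to 0.27 in A549 *TRA2A* KD, -0.00284 to 0.27 in A549 *TRA2B* KD, -0.26 to -0.14 in LN229 Luc *TRA2B* KO, -0.13 to -0.00789 in LN229 TRA2B-OE Control KO, -0.26 to -0.13 in LN319 TRA2B-OE Control KO and -0.10 to -0.0149 in NCI-H23 *TRA2A* KD. The 30 members in A549 DKD went with 37.8% of all genes called, and the 17 in the A549 non-additivity test with 22.2%. In LN229 Luc *TRA2B* KO, 25 members went with 21.0% without Luc Control KO replicate 1, and 0 with 0.0163% without replicate 2. For the other ends of these ranges the shares of all genes are not given here. The causes of these changes were not tested.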
